A study of Saccharomyces cerevisiae with 44 samples.

Results

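The genes described here code for ribosomal proteins of the budding yeast Saccharomyces cerevisiae. They are 36 of the 6692 features counted, chosen by name: 10 single-copy genes of the large (60S) subunit, 8 single-copy genes of the small (40S) subunit, ASC1, the 5 genes of the acidic stalk (RPP0, RPP1A, RPP1B, RPP2A and RPP2B), and both genes of the RPL6, RPL7, RPL8, RPL13, RPL14 and RPL16 pairs. By systematic name they include RPL3 (YOR063W), RPS31 (YLR167W), RPS15 (YOL040C), RPL39 (YJL189W), RPL8A (YHL033C), RPL8B (YLL045C), RPL16A (YIL133C), RPL16B (YNL069C), RPL7A (YGL076C), RPL7B (YPL198W), RPL6A (YML073C), RPL6B (YLR448W), RPL28 (YGL103W) and ASC1 (YMR116C). The RefSeq product of all 36 is a ribosomal protein, and all 36 passed the filter on low counts. RNA was sequenced from W303 cells, a standard laboratory background, labelled wild type. Cultures received 1 of 6 replication inhibitors or a vehicle, and were then grown to a time set from the growth inhibition by the drug. Each of the 11 groups had 2 biological replicates, treated here as separate cultures, with 2 technical replicates each.

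In rich medium (YEPD) the groups were HU at 50 mM and MMS at 0.002%, both set against C0, which received water, and CPT at 100 µg/mL, set against CC, which received 1 N NaOH. In synthetic complete medium (SC) they were AD at 50 µg/mL against CA (2% acetone), DOX at 25 µg/mL against CD (water), and MTX at 150 µg/mL against CM (0.1 N NaOH). The labels give the drugs by these abbreviations. HU is the usual short name of hydroxyurea, which depletes deoxynucleotides, and MMS that of the alkylating agent methyl methanesulfonate. CPT commonly stands for the topoisomerase inhibitor camptothecin, DOX for the DNA intercalator doxorubicin and MTX for the antifolate methotrexate. AD is not expanded here. Libraries of 1 culture were summed, so each group has n = 2.

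Ribosomal protein genes are among the most strongly transcribed genes of growing yeast, and their output is known to follow growth rate and nutrient signals through the TOR and protein kinase A pathways. At their promoters the factor Rap1 binds DNA and recruits Fhl1 and its coactivator Ifh1, while Sfp1 responds to TOR. Many of these genes survive as pairs from an ancient genome duplication, and they hold a large share of the introns of this genome, which is otherwise poor in introns. Because the subunits are built from equal numbers of most proteins, these genes are usually described as moving together.

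The 36 genes together took 1.42% to 2.53% of the counted reads of a culture, in libraries of 6821178 to 15077216 counts. In YEPD cultures the share was 1.96% to 2.53%, and in SC cultures it was 1.42% to 2.17%. The lowest count of any of the genes in any culture was 70. Technical replicates differed in these genes as a set: the median of the 36 genes differed by up to 0.36 on the log2 scale between the 2 libraries of 1 culture, with a median difference of 0.16 over 22 cultures. In 17 of the 22 cultures the deeper library had the lower value. Between cultures of 1 group the pooled SD of the median of the 36 genes was 0.14 on the log2 scale. The medians given below are of similar size to these spreads. Reading frames annotated within the ribosomal DNA repeat held 1.009% to 2.204% of the counts of a library. This share is no measure of ribosomal RNA content. It was 2.052% and 2.085% in the DOX cultures, against 1.224% and 1.337% in the CD cultures.

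Levels differed widely between the genes. Per kilobase of gene span, introns included, RPS31 was highest, with a mean of 4260 CPM (counts scaled to a common library size) per kb over 22 cultures and a range of 3100 to 5610. RPS31 codes for a 40S protein made as a fusion to ubiquitin, and it ranked 6th of the 6344 genes tested. RPS12, a 40S protein, averaged 2870 and RPL3, a 60S protein near the peptidyl transferase centre, averaged 2710 CPM per kb. These levels stood far above the low end of the set. RPL39, a small protein at the peptide exit tunnel, was lowest at 18.3 CPM per kb of span, with a range of 8.19 to 27.7. Per kb of coding sequence RPL7B was lowest, at 52.3, below RPL39 at 63.7 CPM per kb. RPL7B averaged 24.8 and the stalk gene RPP1B averaged 56.6 CPM per kb. RPL39 is split by an intron after the first 6 coding bases, and 50.4% of its span is shared with a feature on the opposite strand; reads touching both features were not counted, since the counting was unstranded. Counts of RPL10 (61.3% of its span shared), RPL8B (53.7%), RPP0 (47.8%), RPL28 (44%), RPS2 (30.2%), RPL7B (23.2%) and RPL13B (22.5%) are limited in the same way, so their levels are lower bounds.

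**Figure D1:**
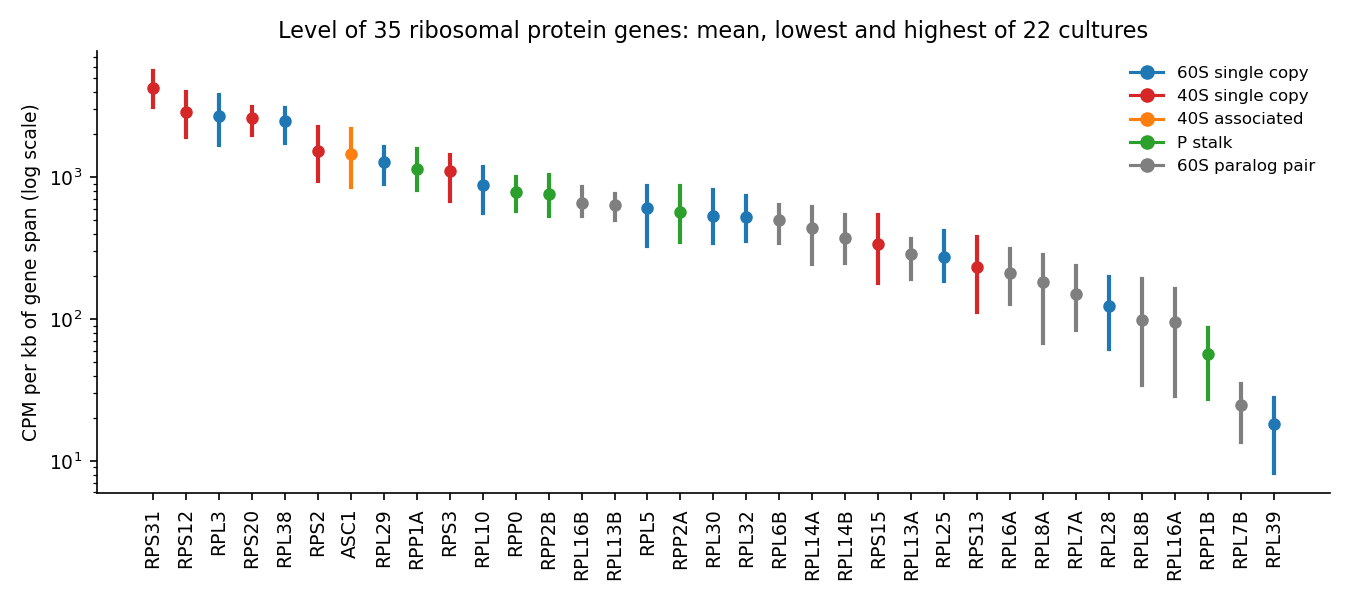
Mean level (points) and lowest to highest culture (lines) of 35 of the 36 genes over 22 cultures, in CPM per kb of gene span on a log axis, coloured by role. RPS31 stands highest at 4260 CPM per kb and RPL39 lowest at 18.3.

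In 25 of the 36 genes the highest culture was more than 2 times the lowest. The widest spreads were those of RPL16A (5.66 times), RPL8B (5.63 times) and RPL8A (4.14 times), and the narrowest was that of RPL13B (1.53 times). These 3 genes of widest spread belong to duplicated pairs, and so does RPL13B. The next widest were the single-copy genes RPS13 (3.39 times), RPL39 (3.38 times) and RPL28 (3.2 times). A further limit holds for 3 pairs. Over the whole of their span RPL8A and RPL8B are at least 95% identical, and parts of RPL7A with RPL7B and of RPL14A with RPL14B are too, so how reads were split within these pairs is uncertain.

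Of the 36 genes, 17 hold introns. The splice site letters were read from the R64 genome because several of these genes are known for unusual introns. Of the 19 introns, 16 begin with GTATGT, the common yeast 5′ splice site, and 14 of these also hold the canonical branch site TACTAAC; the first introns of RPL7A and RPL7B lack that branch site sequence. The introns of RPL16A and RPL16B begin with GTACGT. RPL30, whose protein is known to bind its own transcript and block its splicing, has an intron that begins with GTCAGT. Introns of ASC1, RPL7A and RPL7B hold the small nucleolar RNA genes SNR24, SNR39 and SNR59. The counted span includes introns, so reads of these RNAs may be counted with the host genes, which was not tested.

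Hydroxyurea did not move these genes past the threshold. With HU, 0 of 36 genes were called at an adjusted p below 0.05 against C0, none had an unadjusted p below 0.05, and DESeq2 also called 0, while 3.56% of all genes tested were called with edgeR (2.63% higher, 0.93% lower). The median log2 fold change of the 36 genes was -0.03, with a range of -0.25 to 0.20, beside -0.02 over all genes. ASC1, the yeast RACK1 scaffold on the head of the 40S subunit, had the smallest p: it had 1850 and 1970 CPM in the HU cultures, against 1850 and 2710 CPM in the C0 cultures, a log2 fold change of -0.25 ± 0.17 (SE, adjusted p = 0.525). The groups overlapped in ASC1, and the spread lay in the C0 cultures. The C0 cultures differed across the whole set, with medians of -0.03 and 0.32 on the log2 scale relative to the mean of all cultures. Without C0 culture 1 the HU median was -0.18, and without C0 culture 2 it was 0.20, so the sign of the HU median rests on which water culture is used.

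MMS raised a few genes and left most within their error. With MMS, 3 of 36 genes rose (8.33%) and 0 fell against C0. Of all genes tested 10.8% were called, 6.07% higher and 4.7% lower. The count of rises is near the share of all genes and is no result about the set. RPS15, which sits in the head of the 40S subunit, had 228 and 229 CPM in the MMS cultures, against 109 and 144 CPM in the C0 cultures. Both MMS cultures were above both C0 cultures, and the log2 fold change was 0.86 ± 0.17 (SE, adjusted p = 0.00292). RPL8B, a 60S protein, had 148 and 118 CPM with MMS and 55.4 and 90.1 CPM in C0, a log2 fold change of 0.87 ± 0.25 (adjusted p = 0.0296). Its copy RPL8A had 172 and 150 CPM with MMS and 158 and 186 CPM in C0, with a log2 fold change of -0.10 ± 0.15, so within this pair the B gene alone passed the test. RPL6A had 296 and 258 CPM with MMS and 164 and 206 CPM in C0, a log2 fold change of 0.58 ± 0.17 (adjusted p = 0.0307), while RPL6B had a log2 fold change of 0.08. RPL16A, at 0.52 (adjusted p = 0.0677), did not pass.

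The median over the 36 genes was 0.10 with MMS, beside -0.02 over all genes. It depended on single cultures: the count of called genes was 0 without C0 culture 1, 6 without C0 culture 2, 3 without MMS culture 1 (1 higher, 2 lower) and 1 without MMS culture 2, and the median was -0.09, 0.32, -0.02 and 0.20 in these fits. RPS15 passed in 3 of these 4 fits and had an adjusted p of 0.0567 without C0 culture 1. RPL8B and RPL6A each passed in 1 of the 4. The fitted values stayed positive in all 4 fits for these 3 genes.

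RPS15 shares a divergent promoter with the stalk gene RPP2A. They lie head to head on chromosome XV with 719 bases between their start codons. RPP2A had 151 and 112 CPM with MMS, against 174 and 207 CPM in C0. Its log2 fold change of -0.53 ± 0.18 did not pass (adjusted p = 0.0669), while DESeq2 called 1 of the 36 genes lower. In the authors' deposited DESeq2 table for MMS, RPP2A was the 1 gene of the 36 that was lower (-0.52, adjusted p = 0.0021), and 8 were higher. Of the 6242 features with an adjusted p there, 927 were lower and 973 higher. With HU, RPS15 had 143 and 143 CPM, and the direct comparison of HU with MMS called it alone among the 36 genes, at -0.68 ± 0.17 (adjusted p = 0.027; 4.52% of all genes called, 2.41% higher and 2.11% lower). It did not pass in any of the 4 fits that left out a culture. The 300 bases of RPS15 that end 200 bases before its start codon are shown because they lie between these genes. In the R64 genome this window spans chrXV:253778-254077 and is read on the minus strand, with matches to the letters CCNNACA, a loose core of the Rap1 motif, on either strand in capitals.
RPS15: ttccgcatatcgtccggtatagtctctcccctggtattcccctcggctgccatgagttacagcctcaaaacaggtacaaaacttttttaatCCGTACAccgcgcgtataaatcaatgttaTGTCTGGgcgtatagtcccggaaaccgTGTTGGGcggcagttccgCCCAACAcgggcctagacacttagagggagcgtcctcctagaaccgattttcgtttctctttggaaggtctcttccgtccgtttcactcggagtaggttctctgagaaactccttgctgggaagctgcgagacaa

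With CPT, 0 of 36 genes passed the test against CC, while 2.81% of all genes did (1.91% higher, 0.898% lower); 2 of the 36 had an unadjusted p below 0.05 and DESeq2 called 0. The median log2 fold change was -0.12, beside 0.01 over all genes, and 27 of the 36 values were below 0. Leaving out a culture moved this median between -0.22 (without CPT culture 2) and -0.04 (without CPT culture 1). RPL8A had the smallest p, with 144 and 182 CPM in the CPT cultures, against 209 and 218 CPM in the CC cultures, and a log2 fold change of -0.39 ± 0.15 (adjusted p = 0.217). Both CPT cultures were below both CC cultures in RPL8A. The difference between the CPT and MMS responses, each taken against its own vehicle, was past the threshold in 0 of 36 genes (6 had an unadjusted p below 0.05, and DESeq2 called 0; 2.14% of all genes were called, 1.34% higher and 0.804% lower). RPL16A had the smallest p, at -0.74 ± 0.25 (adjusted p = 0.195). The counts at an unadjusted p stand without the share of all genes at that threshold.

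AD lowered 1 gene of the set. With AD, 1 of 36 genes fell and 0 rose against CA, while 3.14% of all genes were called (2.02% higher, 1.12% lower). That gene was RPL8A. It had 68.7 and 67.0 CPM in the AD cultures, against 132 and 155 CPM in the CA cultures. The fitted fold was 0.473, and the log2 fold change was -1.08 ± 0.16 (adjusted p = 0.00237). RPL8B had 53.5 and 52.0 CPM with AD, against 57.8 and 65.1 CPM in CA, with a log2 fold change of -0.22 ± 0.24 (adjusted p = 0.656). RPL8A passed in 3 of the 4 fits that left out a culture, and had an adjusted p of 0.0501 without AD culture 2. The other 35 genes lay between -0.32 and 0.49, and the median of the 36 was -0.11, or 0.00 without CA culture 2 and -0.23 without CA culture 1. Within both AD and CA, the 2 cultures differed in a list of 20 stress genes under Msn2 and Msn4, and the groups overlapped. Of these 20 genes, 0 passed in AD against CA (3 had an unadjusted p below 0.05). The median of this list was 0.41 and -1.35 in the AD cultures and 1.30 and -0.56 in the CA cultures, relative to the mean of all cultures. The part of this in the result was not tested.

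Of the 6 drugs, DOX gave the most called genes. With DOX, 12 of 36 genes fell and 0 rose against CD. This is 33.3% of the set, in a comparison in which 41.2% of all genes tested were called, 21% higher and 20.2% lower. The median of the 36 genes was -0.29, beside -0.02 over all genes, and 28 of 36 values were below 0. By role, 4 of the 10 single-copy 60S genes fell, 3 of the 8 single-copy 40S genes, ASC1, 0 of the 5 stalk genes and 4 of the 12 genes of the 60S pairs.

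RPL16A fell most. It codes for a copy of the 60S protein uL13, and had 37.1 and 25.4 CPM in the DOX cultures, against 84.4 and 80.7 CPM in the CD cultures. The groups were far apart, the fitted fold was 0.379, and the log2 fold change was -1.40 ± 0.18 (SE, adjusted p = 2.29e-05). Its copy RPL16B had 661 and 558 CPM with DOX and 572 and 585 CPM in CD, with a log2 fold change of 0.07 ± 0.15 (adjusted p = 0.715). The decline thus lay in the minor gene of the pair, since RPL16B was the far stronger gene in each culture.

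RPL8A had 62.3 and 52.6 CPM with DOX, against 128 and 142 CPM in CD, a log2 fold change of -1.23 ± 0.16 (adjusted p = 2.29e-05). RPL8B had 45.8 and 26.3 CPM with DOX, against 58.2 and 56.1 CPM in CD, and it also passed, at -0.66 ± 0.25 (adjusted p = 0.0417). The DOX cultures were below the CD cultures in both genes, with a wide gap between the DOX cultures in RPL8B. RPL39 had 4.44 and 5.18 CPM with DOX, against 10.7 and 10.7 CPM in CD, a log2 fold change of -1.15 ± 0.28 (adjusted p = 0.00393). RPL39 has the lowest counts of the set, and 50.4% of its span was not countable.

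**Figure D2:**
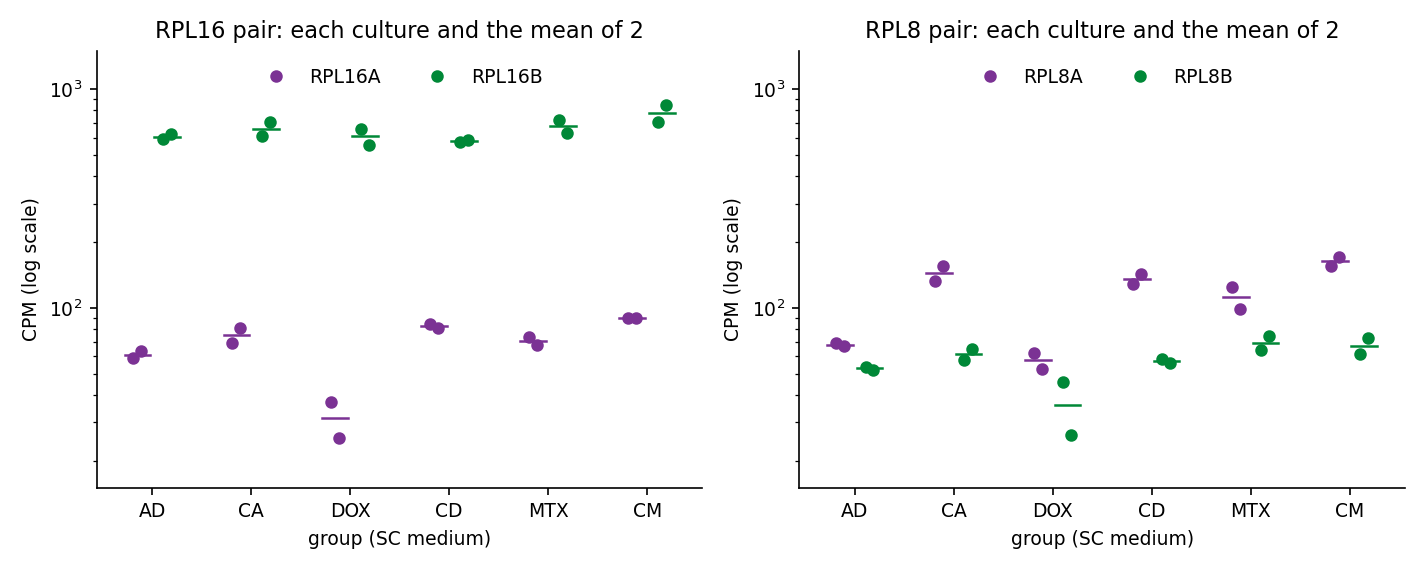
CPM on a log axis in each SC culture (points) and the mean of 2 cultures (lines) for RPL16A and RPL16B (left) and RPL8A and RPL8B (right). RPL16A lies at 37.1 and 25.4 CPM with DOX, against 84.4 and 80.7 CPM in CD, while RPL16B stays between 558 and 846 CPM in all 12 cultures; RPL8A is near 68 CPM with AD, against 132 and 155 CPM in CA.

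The same windows are shown for these pairs because the fitted changes of their genes with DOX differed in size, without a test of that difference. The letters CCNNACA are in capitals where they occur on either strand. RPL16A (chrIX:99617-99916), RPL16B (chrXIV:495202-495501), RPL8A (chrVIII:36226-36525) and RPL8B (chrXII:48830-49129) are all on the minus strand of the R64 genome and are written in the direction of the gene. The window of RPL16A holds no match, and those of the other 3 genes hold 1 each.
RPL16A: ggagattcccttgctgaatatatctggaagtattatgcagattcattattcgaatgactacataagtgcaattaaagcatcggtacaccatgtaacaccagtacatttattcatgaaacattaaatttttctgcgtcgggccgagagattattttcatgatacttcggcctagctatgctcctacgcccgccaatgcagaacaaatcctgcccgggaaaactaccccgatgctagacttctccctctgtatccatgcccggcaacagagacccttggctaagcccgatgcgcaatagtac
RPL16B: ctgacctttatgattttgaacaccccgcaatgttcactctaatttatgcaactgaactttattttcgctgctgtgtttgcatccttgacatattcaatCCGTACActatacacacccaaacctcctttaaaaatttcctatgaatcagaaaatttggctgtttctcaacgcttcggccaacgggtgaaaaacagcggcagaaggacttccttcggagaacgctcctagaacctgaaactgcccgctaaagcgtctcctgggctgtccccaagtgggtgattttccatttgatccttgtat
RPL8A: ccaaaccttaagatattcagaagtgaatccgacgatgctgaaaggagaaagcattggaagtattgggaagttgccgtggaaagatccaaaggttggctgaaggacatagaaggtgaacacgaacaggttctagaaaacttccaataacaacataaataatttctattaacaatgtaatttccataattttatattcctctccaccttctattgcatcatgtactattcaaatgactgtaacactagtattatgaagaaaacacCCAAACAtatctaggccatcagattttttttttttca
RPL8B: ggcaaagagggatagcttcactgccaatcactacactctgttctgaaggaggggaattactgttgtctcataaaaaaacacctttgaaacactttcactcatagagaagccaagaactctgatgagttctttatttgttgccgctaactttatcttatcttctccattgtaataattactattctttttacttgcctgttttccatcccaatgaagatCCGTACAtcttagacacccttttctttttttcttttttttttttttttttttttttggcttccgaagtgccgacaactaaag
Of the 36 genes, 32 (88.9%) have CCNNACA in this window, against 76.5% of the other cytosolic ribosomal protein genes and 30.4% of the remaining RefSeq protein genes. The narrower letters CCNTACA occur in 20 of the 36 (55.6%), against 57.8% of the other cytosolic ribosomal protein genes and 9.6% of the remaining genes. These letters and the window were chosen after seeing the matches of 6 combinations of letters and window, and over the 3 windows tried the share of the 36 genes with a match was 75% to 88.9% for the loose letters and 41.7% to 55.6% for the narrow ones. The Fhl1 core GACGC occurs in 27.8% of the 36 windows, in 28.4% of the other cytosolic ribosomal protein genes and in 21.2% of the remaining genes. The tract AAAATTT occurs in 27.8%, 27.5% and 18.4% of these sets, in the same order. The 20 genes with CCNTACA had a median log2 fold change of -0.31 with DOX and the 16 without it had -0.26, so the medians were close. A match does not show binding, and a window without one may still be bound.

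The other genes that fell with DOX included RPL28 (-0.95), RPL7B (-0.86), RPS13 (-0.63), RPL5 (-0.56), ASC1 (-0.56), RPS3 (-0.46) and RPL3 (-0.44), all as log2 fold changes. RPL28, the 60S protein also known as the cycloheximide resistance gene CYH2, had 66.8 and 59.4 CPM with DOX, against 123 and 120 CPM in CD (adjusted p = 0.00139). RPL7B had 21.3 and 21.3 CPM with DOX, against 35.8 and 41.6 CPM in CD (adjusted p = 0.000513). Its copy RPL7A had 172 and 140 CPM with DOX and 194 and 189 CPM in CD, with a log2 fold change of -0.30 that did not pass (adjusted p = 0.177). RPL5, which carries the 5S RNA into the 60S subunit, had 346 and 294 CPM with DOX, against 472 and 472 CPM in CD. The 24 genes that did not pass lay between -0.45 (RPL14A) and 0.30 (RPP2B).

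The size of the decline with DOX went with the level of the gene per kb of span, introns included. Of the 12 genes of lowest level per kb, 7 fell, with a median of -0.64, and of the 12 highest 4 fell, with a median of -0.18. Across the 36 genes Spearman's rho between level per kb and log2 fold change was 0.49 with DOX, 0.52 with AD, -0.21 with MTX, -0.31 with MMS, -0.33 with CPT and -0.17 with HU. These are across genes of the same libraries and are given as descriptions. Genes with introns had a median of -0.34 with DOX (6 of 17 fell) and genes without had -0.18 (6 of 19 fell). Most of the 12 lowest genes hold introns, against ASC1 alone of the 12 highest, so level and introns cannot be told apart here. Levels of RPL39, RPL28, RPL8B and RPL7B among the lowest, and of RPL10 and RPS2 among the highest, are lower bounds.

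The DOX cultures were not equal: relative to the mean of all cultures the median of the 36 genes was -0.31 in DOX culture 1 and -0.57 in DOX culture 2, against -0.11 and -0.11 in the CD cultures. The stress gene list stood at -0.42 and 0.07 in the DOX cultures, against 0.68 and 0.69 in the CD cultures. Of its 20 genes 5 were lower (25%), among them HXK1 (-2.89) and SPI1 (-1.37), and 1 was higher (5%, HSP26, at 3.86). Of 16 genes repressed by glucose, 4 rose (25%) and 2 fell (12.5%) with DOX. Of all genes, 20.2% fell and 21% rose with DOX. Lists this short do not make these counts a result about the lists. The part of these lists in the result was not tested. The count of genes that fell was 16 without DOX culture 1, 5 without DOX culture 2, 9 without CD culture 1 and 7 without CD culture 2. RPL16A, RPL8A, RPL39, RPL28 and RPL7B passed in all 4 of these fits. In the authors' deposited table, 17 of the 36 genes were lower and 1 was higher at an adjusted p below 0.05. Of the 6486 features with an adjusted p there, 1942 were lower and 1932 higher.

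MTX also lowered part of the set. With MTX, 8 of 36 genes fell and 0 rose against CM, while 19.8% of all genes were called, 10.8% higher and 9% lower. The median was -0.27, beside -0.03 over all genes, and 27 of 36 values were below 0. RPL3 had 2280 and 1970 CPM in the MTX cultures, against 3050 and 3500 CPM in the CM cultures, a log2 fold change of -0.62 ± 0.16 (adjusted p = 0.012). RPL8A had 125 and 98.5 CPM with MTX, against 155 and 171 CPM in CM, a log2 fold change of -0.54 ± 0.15 (adjusted p = 0.0206). RPL8B had 63.9 and 74.0 CPM with MTX and 61.4 and 72.8 CPM in CM, at 0.04 ± 0.24. RPL7B had 37.0 and 37.7 CPM with MTX, against 53.7 and 54.2 CPM in CM, a log2 fold change of -0.53 ± 0.16 (adjusted p = 0.0238), while RPL7A had 256 and 230 CPM with MTX and 229 and 258 CPM in CM.

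The other genes that fell with MTX were RPS2 (-0.51), at the mRNA entry of the 40S subunit, RPL10 (-0.50), among the last proteins to join the 60S subunit, ASC1 (-0.50), RPP0 (-0.45), the base of the stalk, and RPS20 (-0.42), in the 40S head. RPL39, with 5.80 and 5.95 CPM in the MTX cultures and 8.44 and 11 CPM in the CM cultures, had a log2 fold change of -0.73 ± 0.27 that did not pass (adjusted p = 0.0696). The fits that left out a culture called 4 genes without MTX culture 1, 0 without MTX culture 2, 1 without CM culture 1 and 0 without CM culture 2, with medians between -0.36 and -0.16. With MTX, 3 of the 20 stress genes rose (15%, HSP26, HSP12 and YGP1) and 0 fell, and 4 of the 16 glucose-repressed genes rose (25%). Of all genes, 10.8% rose and 9% fell with MTX. Counts in lists this short are no result about the lists, and the part of these lists in the result was not tested. None of the 8 genes passed in all 4. The authors' deposited table has 14 of the 36 genes lower and 0 higher with MTX. Of the 6482 features with an adjusted p there, 1152 were lower and 1337 higher.

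RPL3, RPL7B, RPL8A and ASC1 fell with both DOX and MTX, which is 33.3% of the genes that fell with DOX and 50.0% of those that fell with MTX. The same overlap over all genes was not computed, so these shares are no result about the set. The difference between the MTX and DOX responses was past the threshold in 4 genes, while 21.3% of all genes were called (10.1% higher, 11.3% lower). The MTX response was higher than the DOX response in RPL16A (1.06 ± 0.25, adjusted p = 0.00645), RPL8A (0.69 ± 0.22, adjusted p = 0.0349) and RPL5 (0.57 ± 0.20, adjusted p = 0.0494). It was lower in RPS20 (-0.53 ± 0.18, adjusted p = 0.0432), with 787 and 725 CPM in MTX cultures and 978 and 1040 CPM in CM cultures. RPL5 had 573 and 520 CPM with MTX and 515 and 567 CPM in CM. The RPL16A difference passed in all 8 fits that left out a culture, that of RPL8A in 3, that of RPS20 in 1 and that of RPL5 in 0. The DOX response minus the AD response was past the threshold in RPL39 (-1.64 ± 0.39, adjusted p = 0.0244) and RPL16A (-1.11 ± 0.25, adjusted p = 0.0178), with 5.28% of all genes called (2.92% higher, 2.36% lower). RPL8A, called with AD, DOX and MTX, was the only gene of the set called in 3 drug comparisons.

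**Figure D3:**
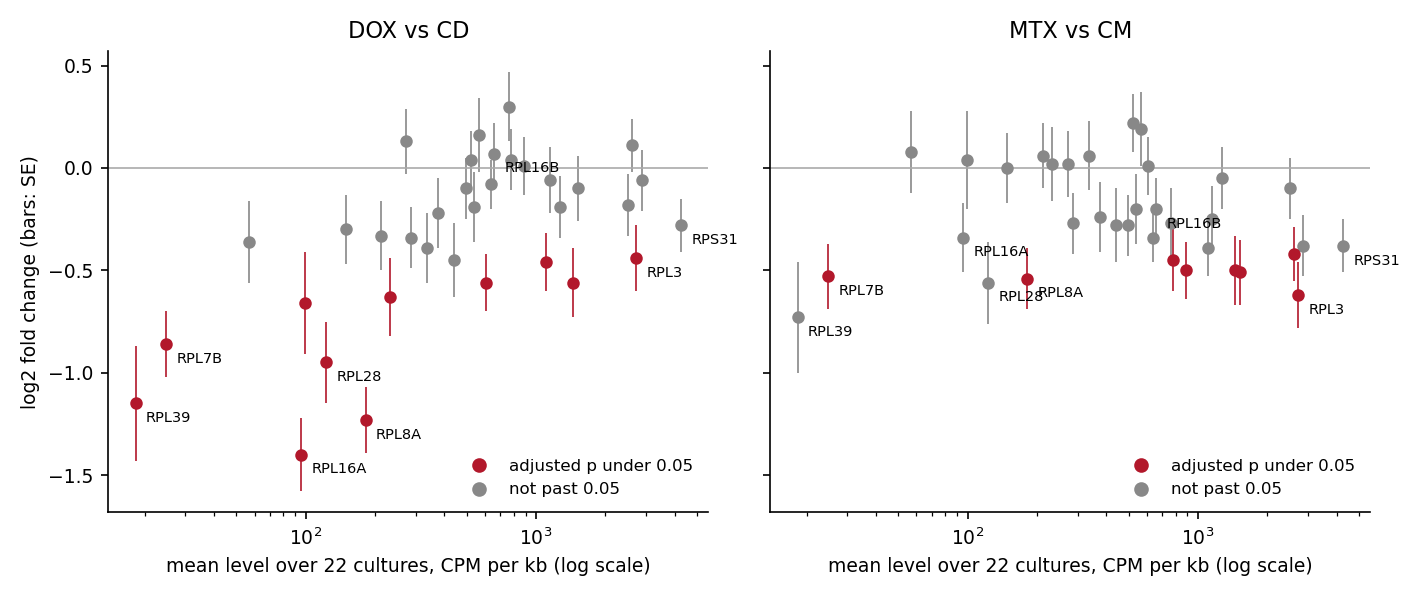
log2 fold change with its SE against the mean level over 22 cultures in CPM per kb (log axis) of 35 of the 36 genes for DOX over CD (left) and MTX over CM (right), with genes past an adjusted p of 0.05 in red. The largest declines with DOX, such as RPL16A at -1.40, lie at low levels, and with MTX the called genes include the abundant RPL3 at -0.62.

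**Figure D4:**
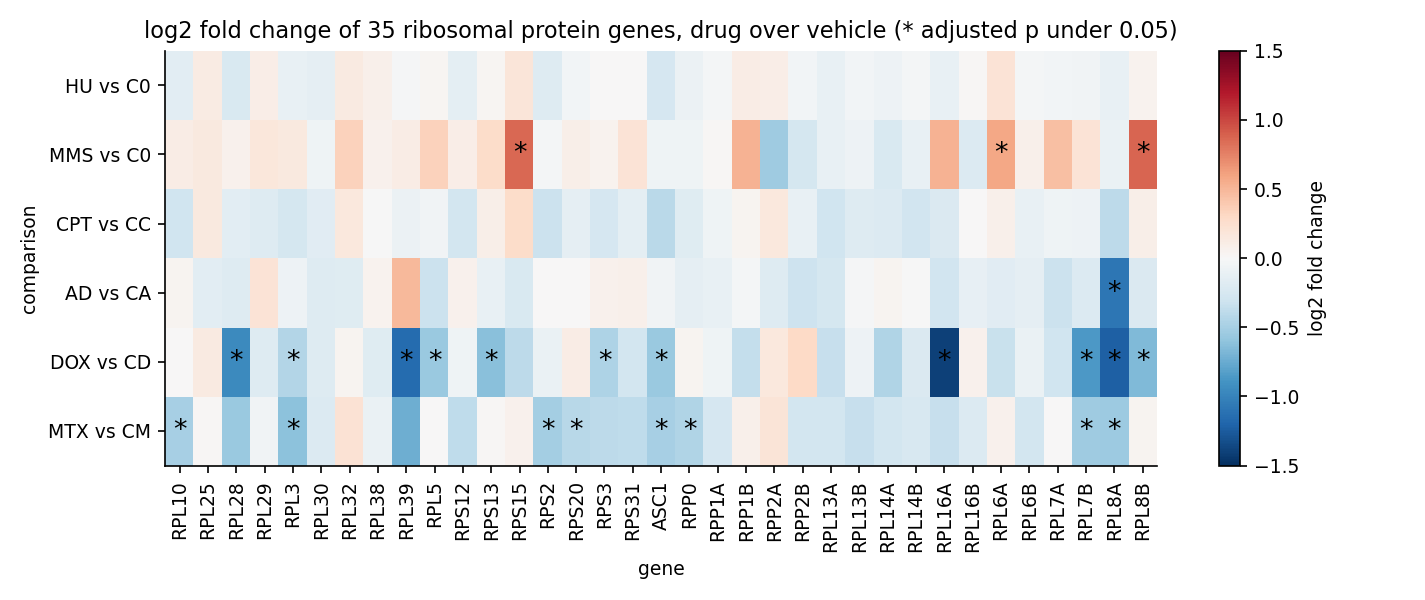
log2 fold change of 35 of the 36 genes (columns, ordered by role) in the 6 drug comparisons (rows), with asterisks at an adjusted p below 0.05. Asterisks number 0 with HU, 3 with MMS, 0 with CPT, 1 with AD, 11 with DOX and 8 with MTX.

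In all, 18 of the 36 genes were called in at least 1 drug comparison: 13 in 1, 4 in 2 and RPL8A in 3. The share of all genes called in at least 1 drug comparison was not computed. DOX alone called 41.2% of all genes, so these counts are no result about the set. The 18 genes called in none were RPL25, RPL29, RPL30, RPL32, RPL38, RPS12, RPS31, RPP1A, RPP1B, RPP2A, RPP2B, RPL6B, RPL7A, RPL13A, RPL13B, RPL14A, RPL14B and RPL16B. Of the stalk genes, only RPP0 was called with any drug. A call in one comparison and not in another is not a test of their difference.

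The ratio within a pair is set inside each library and is not touched by scaling. The log2 ratio of RPL16A to RPL16B per kb was -3.92 and -4.22 with DOX, -1.95 and -2.13 with MMS, and between -3.10 and -2.41 in the other 18 cultures. The DOX cultures were thus lowest and the MMS cultures highest of all 22. The log2 ratio of RPL8A to RPL8B was lower in drug than in vehicle cultures, as the mean of 2, in 6 of 6 comparisons, and the groups did not overlap in 5 of them. Groups of 2 often do not overlap: the RPP2 ratio did not overlap in 6 of 6 comparisons, RPL6 in 5, and RPL7, RPL13, RPL16 and RPP1 in 4 each, so the count does not set RPL8 apart. It was 0.21 and 0.35 with MMS, against 1.51 and 1.04 in C0, and 0.36 and 0.37 with AD, against 1.19 and 1.25 in CA. HU was the comparison that overlapped, with 1.27 and 0.91, against 1.51 and 1.04 in C0. The HU and MMS groups share the C0 cultures, and no test was made of these ratios; the near identity of the RPL8 genes limits them. The RPL7A to RPL7B ratio was 2.91 and 2.62 with DOX, against 2.34 and 2.09 in CD, and 2.69 and 2.51 with MTX, against 1.99 and 2.15 in CM. Over all cultures RPP1A exceeded RPP1B most, with a median log2 ratio of 4.40, and RPL14A and RPL14B were closest, at 0.23.

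Between the media, both with water, most values were above 0 and few passed the test. In C0 against CD, 5 of 36 genes were higher (13.9%) and 0 were lower. Of all genes 20.1% were called, 11.2% higher and 8.87% lower. The count of higher genes is near the share of all genes and is no result about the set. Of the 36 values, 35 were above 0, with a median of 0.32 beside 0.02 over all genes. RPL30 had 326 and 447 CPM in C0, against 237 and 238 CPM in CD, a log2 fold change of 0.70 ± 0.17 (adjusted p = 0.0108). The acidic stalk genes RPP2A, with 174 and 207 CPM in C0 and 117 and 123 CPM in CD, and RPP2B, with 253 and 304 CPM in C0 and 187 and 177 CPM in CD, were higher by 0.67 ± 0.18 (adjusted p = 0.0172) and 0.61 ± 0.17 (adjusted p = 0.0193). RPL32 and RPL14B, both at 0.49, were the other genes called. This comparison turned on C0 culture 2: without it 0 genes were called and the median was 0.08, and without C0 culture 1 there were 16 and 0.47. Without CD culture 1 or CD culture 2, 0 genes were called, with medians of 0.28 and 0.31.

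**Figure D5:**
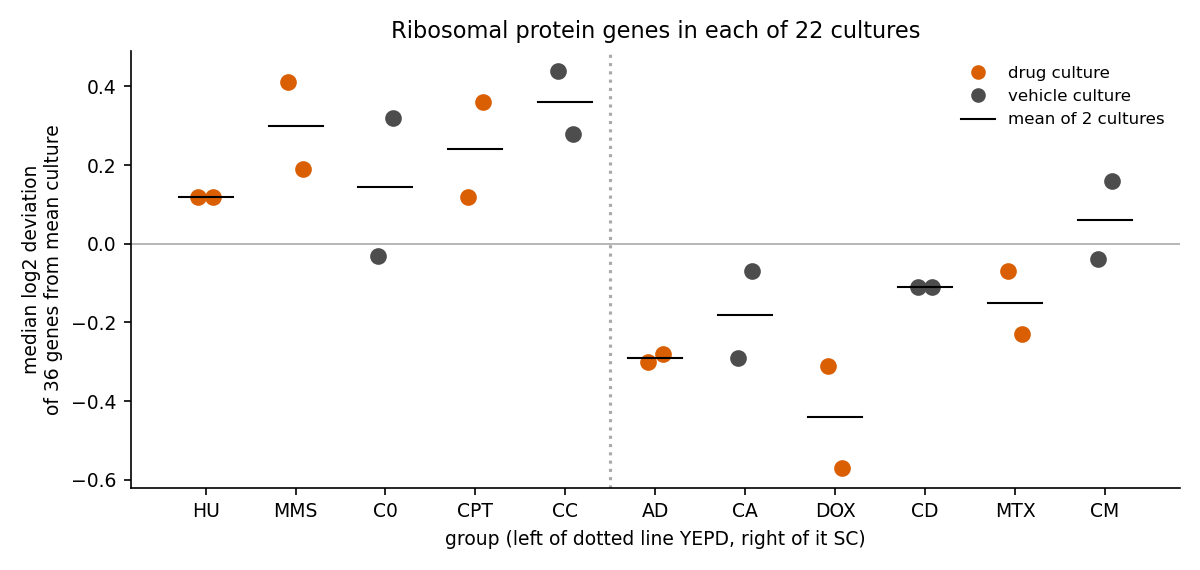
Median log2 deviation of the 36 genes from the mean of all cultures in each of the 22 cultures (points; lines are means of 2), with drug groups left of their vehicle. DOX culture 2 is lowest at -0.57, CC culture 1 highest at 0.44, and the C0 cultures stand apart at -0.03 and 0.32.

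Vehicles moved none of the 36 genes past the threshold. CC against C0 had a median of 0.17, with 0 genes called by edgeR or DESeq2, 10 at an unadjusted p below 0.05, and 0.221% of all genes called (0.189% higher, 0.0315% lower). RPL5 had the smallest p there, at 780 and 711 CPM in the CC cultures, against 466 and 603 CPM in the C0 cultures (0.48 ± 0.14, adjusted p = 0.121). Both CC cultures were above both C0 cultures in RPL5. CA against CD had a median of -0.03, with 0 genes called by both tools, 6 at an unadjusted p below 0.05 and 0% of all genes called with edgeR. RPP2A had the smallest p, with 161 and 184 CPM in CA and 117 and 123 CPM in CD (0.52 ± 0.18, adjusted p = 0.998). The groups did not overlap in RPP2A. CM against CD had a median of 0.19, with 0 genes called by both tools, 8 at an unadjusted p below 0.05 and 0% of all genes called with edgeR. RPP2A again had the smallest p, with 188 and 221 CPM in CM and 117 and 123 CPM in CD (0.77 ± 0.18, adjusted p = 0.839). The same CD cultures stand in each of these SC comparisons. Shares of all genes are given here for the adjusted p only. The counts at an unadjusted p below 0.05 have no such share beside them and are no result about the set.

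The remaining 102 cytosolic ribosomal protein genes were read in the same way. With DOX, 40 of 102 fell (39.2%, beside 33.3% of the 36 genes and 20.2% of all genes), with a median of -0.29. The smallest p among them belonged to RPL22B (-1.97), RPL31B (-1.10) and RPL27B (-1.13). With MTX, 14 of 102 fell (13.7%, beside 22.2% of the 36 genes and 9% of all genes), with a median of -0.21. RPS6A (-0.57), RPL9A (-0.68) and RPS6B (-0.50) had the smallest p. With MMS, 6 of 102 rose (5.88%, beside 6.07% of all genes), with a median of 0.10, so the count is no result about the list. RPL17A (0.91), RPL34A (0.75) and RPS7B (0.93) had the smallest p. With AD, 1 of 102 fell (0.98%, beside 1.12% of all genes), RPL22B (-1.59), with a median of -0.03. With HU and CPT 0 of 102 were called, with 0 and 9 at an unadjusted p below 0.05. In C0 against CD, 6 of 102 were higher (5.88%, below the 11.2% of all genes), with a median of 0.24, so this count too is no result about the list. The medians of the 36 genes and of these 102 were thus within 0.1 of each other in these comparisons.

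Mitochondrial ribosomal protein genes, which serve a separate ribosome, were a separate list. With DOX, 41 of 54 fell (75.9%, beside 20.2% of all genes) and 0 rose, with a median of -0.72. RSM26 (-1.95), MRPL44 (-1.41) and MRPL15 (-1.01) had the smallest p. With MTX 0 of 54 were called, 3 had an unadjusted p below 0.05 and the median was -0.05. In C0 against CD, 41 of 54 were lower (75.9%, beside 8.87% of all genes), with a median of -0.90. The difference between the mitochondrial and cytosolic lists was not tested.

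Among 7 genes of activators of ribosomal protein genes, 3 fell (42.9%) and 1 rose (14.3%) with DOX, with a median of -0.40. Of all genes tested, 20.2% fell and 21% rose with DOX. SFP1 had 14.7 and 16.1 CPM with DOX, against 35.5 and 31.0 CPM in CD, a log2 fold change of -1.11 (adjusted p = 0.000199). FHL1 had 101 and 109 CPM with DOX, against 195 and 215 CPM in CD (-0.96, adjusted p = 0.00112), and FPR1 was the one that rose (0.47). With MTX, FHL1 alone fell, at -0.59 (adjusted p = 0.0417). With MMS, SFP1 rose (0.62) and RAP1 fell (-0.69), and with HU RAP1 fell (-0.68); HU and MMS share the C0 cultures. Of 4 genes of repressors, DOT6 fell with DOX (-0.89) and STB3 rose with MTX (0.88). Of all genes tested, 9% fell and 10.8% rose with MTX, 4.7% and 6.07% with MMS, and 0.93% and 2.63% with HU. Lists of 7 and 4 genes are too short for these counts to be a result about the lists. These are transcript levels, and factor activity was not measured.

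A list of 8 genes of TOR and Sch9 signalling was also read. With DOX 3 rose (37.5%) and 1 fell (12.5%), beside 21% and 20.2% of all genes. With MTX 2 rose (25%) and 1 fell (12.5%), beside 10.8% and 9% of all genes. With MMS 1 rose (12.5%, beside 6.07%), and with HU 1 fell (12.5%, beside 0.93%). SCH9, the kinase that carries TOR signals to ribosome synthesis, rose with MMS (0.68), DOX (0.81) and MTX (1.04), and LST8 fell with HU (-0.51), DOX (-0.56) and MTX (-0.54). KOG1 rose with DOX (0.48) and MTX (0.34), and TOR2 rose with DOX (0.46). Of 39 ribosome biogenesis genes, 6 fell (15.4%) and 1 rose with DOX, with a median of -0.28, and 3 fell (7.69%) with MTX, with a median of -0.32. These shares lie below the 20.2% and 9% of all genes called lower with DOX and MTX, so the counts are no result about the list. NSR1 (-0.96) and CBF5 (-0.80) fell and RRP5 (0.59) rose with DOX. Of 10 RNA polymerase I genes, 3 rose with DOX (30%, beside 21% of all genes), among them RRN7 (1.52). With MTX 1 of them fell (10%, beside 9%), RPA190 (-0.53). Of 11 dedicated chaperones of ribosomal proteins, 1 fell with DOX (9.09%, below the 20.2% of all genes) and 2 with MTX (18.2%, beside 9%). BCP1, the chaperone of Rpl23, fell with DOX (-0.55) and MTX (-0.67), and ACL4, the chaperone of Rpl4, fell with MTX (-0.58). Of 30 translation factors, 5 fell (16.7%) and 2 rose with DOX, and 6 fell (20%) with MTX, beside the same 20.2% and 9% of all genes; GCD11, the gamma subunit of initiation factor eIF2, fell with MMS (-0.36), DOX (-0.49) and MTX (-0.42). Of 7 chaperones of nascent chains, 2 rose (SSZ1 and ZUO1) and 2 fell (EGD2 and BTT1) with DOX. Each is 28.6% of the list, beside 21% and 20.2% of all genes. In the same list 1 fell with MTX, 1 rose with AD and 1 rose with MMS (EGD2). Each of these is 14.3%, beside 9%, 2.02% and 6.07% of all genes. Counts in lists as short as these are no result about the lists. SSZ1 rose with AD (0.53) and DOX (0.86) and fell with MTX (-0.41).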

How the data were processed

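RNA-seq counts were used for 44 libraries of 22 cultures. Per the file headers, the authors counted reads per gene of the sacCer3 build with featureCounts 1.6.0, ignoring strand; reads over more than 1 feature were left out. The alignment names in the file headers hold bowtie2, mskDup and non-redundant, and duplicates appear to have been removed before counting, though no source used here describes that step; removal of duplicates can lower the counts of short, abundant genes such as these, which was not tested. Log2 fold changes and adjusted p-values (p-value columns) of the authors' deposited tables of comparisons were used only where named. In 1 CM library the title and the description give different technical replicate numbers; the title was followed.

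Counts of technical replicates were summed per culture. Genes were filtered with filterByExpr (minimum count 10, total 15), which left 6344 of 6692 features. All 22 cultures were fitted with 1 mean per group with edgeR 4.0.16 (R 4.3.3; TMM, quasi-likelihood F test, robust). Adjusted p-values are Benjamini-Hochberg values over all 6344 genes, read at 0.05; the scripts were tested on simulated data. Counts at an unadjusted p below 0.05 are given without the share of all genes at that threshold, and are no result about a set. Residual degrees of freedom numbered 11, and the common coefficient of variation between cultures was 0.156. An SE is the log2 fold change divided by the root of F, and CPM are TMM-scaled. Replicates are labelled biological, with 2 cultures per group. The p-values use a spread estimated within all 11 groups together and drawn toward that of other genes. They do not measure the spread of the groups compared alone. Alternatives were other scalings, no filter, DESeq2 1.42.0, a replicate block, single technical replicates and leaving out cultures. Copies were found with BLAST 2.17.0 at 95% identity. Sequences are from the RefSeq R64 genome, in which all 36 genes have the coordinates of the counted features. The 36 genes and the gene lists were chosen with earlier results of these data known. Values in every culture are given for the 3 largest rises and falls among called genes of a comparison (or the smallest p where none passed), for pairs with a called gene, and for the highest and lowest levels; from the other lists, up to 3 called genes with the smallest p (1 list gene was not matched). Fewer cells and less RNA per cell cannot be told apart in these bulk samples. Values of 1 of the 36 genes are not reported here by name or in figures of single genes; the gene stays in all counts and medians.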

Additional observations from a re-analysis of the deposited data

Results flagged for a closer look

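The share of counts in the 36 genes was compared over the 4 libraries of each of the 11 groups. In CPT 1 library stood apart from the other 3, with 2.54% of its counts in these genes. The 4 libraries are technical replicates of 2 cultures and not independent, so the nominal rate of 1 in 20 groups marked by chance does not hold. The marked library, the second of CPT culture 2, had the lowest depth of all (6821178 counts). That culture was among the 17 of 22 in which the deeper library had the lower value. The part of depth was not tested. The responses to drugs differed, by the test of the difference itself, in RPL39 (DOX minus AD, -1.64), RPL16A (DOX minus AD, -1.11; MTX minus DOX, 1.06), RPL8A (MTX minus DOX, 0.69), RPL5 (MTX minus DOX, 0.57) and RPS20 (MTX minus DOX, -0.53), all as differences of log2 fold changes.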

How the results depend on the processing

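No value reversed its sign past the threshold. Over 36 named values of single genes and 500 alternative fits of them, 354 kept their call and 146 no longer passed, 127 of these with a culture left out or with the second technical replicates alone. Leaving out cultures gave the following ranges. Called genes numbered 0 to 6 with MMS (3 in full), 0 to 1 with AD (1), 5 to 16 with DOX (12), 0 to 4 with MTX (8), 0 to 1 for HU against MMS (1), 0 to 16 for C0 against CD (5), 0 to 1 for CPT minus MMS (0), 0 to 3 for DOX minus AD (2) and 1 to 3 for MTX minus DOX (4). Medians spanned -0.18 to 0.20 with HU, -0.09 to 0.32 with MMS, -0.22 to -0.04 with CPT, -0.23 to 0.00 with AD, -0.44 to -0.10 with DOX, -0.36 to -0.16 with MTX, -0.27 to -0.02 for HU against MMS, 0.08 to 0.47 for C0 against CD, 0.05 to 0.39 for CC against C0, -0.17 to 0.08 for CA against CD, 0.12 to 0.27 for CM against CD, -0.46 to -0.10 for CPT minus MMS, -0.36 to -0.02 for DOX minus AD and -0.04 to 0.20 for MTX minus DOX. The lone culture left in a group was assumed to vary like the other groups.

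With DESeq2, 5 genes were called with MMS and 4 for HU against MMS; with library totals alone, 5 and 3; with only the groups compared in the fit, 5 and 5, and 0 with AD, 3 for CM against CD, 0 for DOX minus AD and 10 for MTX minus DOX. TMM without ribosomal protein genes gave 2 for MTX minus DOX. Library totals alone shifted the median of all genes by 0.15 in MTX minus DOX and by under 0.1 elsewhere. The first technical replicates alone gave 5 with CPT, 2 with AD, 2 for HU against MMS and 16 for C0 against CD, with medians of -0.05 with MMS and 0.06 for HU against MMS. The second alone gave 5 with DOX, 0 with MTX, AD, HU against MMS, C0 against CD and DOX minus AD, and 1 for MTX minus DOX, with medians of 0.24 with MMS and -0.28 for HU against MMS. The causes were not tested.

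Culture numbers were not shown to pair drug and vehicle: deviations of same-numbered cultures correlated at 0.71 (AD), 0.49 (CPT), 0.34 (HU), 0.16 (DOX), 0.06 (MMS) and -0.24 (MTX) over all genes. Over the 36 genes the values were 0.64, 0.48, 0.51, 0.39, 0.34 and 0.16, in the same order. With 2 numbers per group this is 1 value per comparison, and the labels do not say what a number marks. With a replicate block, 2 genes were called for MTX minus DOX; the other counts stayed within 1.5 times. The crossed pairing of MTX and CM, chosen after seeing the data, called 24 genes.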
